A study of Mus musculus with 24 samples.

Results

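The genes described here are 9 genes by which the resting, supportive state of astrocytes is usually read, measured in the cortex of mouse models of amyloid disease: Slc1a2, Slc1a3, Glul, Atp1b2, Aqp4, Gja1, Gjb6, Aldh1l1 and Sox9. They were chosen by name, through the Ensembl identifiers of the deposited count matrix, and they are 9 of its 53647 genes. All 9 passed the filter on low counts and were tested.

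Astrocytes clear glutamate and potassium from the space around synapses, turn glutamate into glutamine that neurons reuse, move water at their endfeet on blood vessels and pass ions and metabolites to each other through gap junctions. In the cortex these tasks fall to a small number of abundant membrane proteins, and their transcripts are commonly used as markers of homeostatic astrocytes. In amyloid models astrocytes near plaques are known to become reactive, with more of the filament protein Gfap.

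Bulk RNA sequencing was done on cortex from 24 mice aged 7.5 months, 8 of each of 3 genotypes. All 24 carried the 5xFAD transgenes, which carry familial Alzheimer mutations and are driven by the Thy1 promoter, active mainly in neurons, so that every comparison was made within plaque-forming mice and none with mice that lack the transgenes. The groups were 5xFAD, labelled wild type for Plcg2, 5xFADM28L and 5xFADP522R, the last pair labelled homozygous (HOM) for the Plcg2 variant in the name. Plcg2 encodes a phospholipase that in the brain is expressed mainly by microglia, the M28L variant is known as a risk and P522R as a protective variant for Alzheimer's disease, and the study asked how the variants change the 5xFAD brain. Below, the variant groups are called M28L and P522R. Each group held 4 libraries with the letter F and 4 with the letter M in the title. The letter was used as a covariate and is called the title letter, since no label says what it stands for. Each title carries its own animal number, which names the replicate here.

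The libraries held 79230161 to 115154197 counts, and no pair of libraries was alike within counting noise. P522R libraries differed from the others in several whole-library measures. The number of genes with a count was 22958 to 26648 in P522R, 25608 to 28227 in M28L and 27831 to 29012 in 5xFAD. Bc1, an abundant neuronal noncoding RNA, took 5.32 to 19.8% of the counts in P522R, 2.996 to 6.01% in M28L and 3.61 to 10.4% in 5xFAD. The median log2 level, centred per gene, of the quartile of genes highest in GC content minus that of the lowest quartile ran between -0.43 and 0.80 in P522R, between -0.86 and 0.13 in M28L and between -0.39 and 0.16 in 5xFAD. These measures moved with genotype, so results are given below with and without an allowance for them. In bulk tissue fewer astrocytes and less RNA per astrocyte cannot be told apart.

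In P522R cortex Atp1b2, a beta subunit of the sodium-potassium pump, was 1.89-fold and Aldh1l1, a folate-metabolising enzyme, 1.71-fold the 5xFAD level, while Slc1a2, the main glutamate transporter of the forebrain, stood at 0.737 times the 5xFAD level. The other 6 genes did not pass the test. In edgeR's quasi-likelihood test with Benjamini-Hochberg adjustment over 21280 genes, 3 of the 9 genes passed an adjusted p of 0.05 in P522R against 5xFAD, where 29.8% of all genes tested did. Between P522R and M28L 4 of 9 passed, the same 3 genes in the same directions and Sox9, against 34.8% of all genes. In M28L against 5xFAD 0 of 9 passed, against 1.21% of all genes. There 2 of the 9 had an unadjusted p under 0.05 in edgeR, Sox9 (-0.20, SE 0.08, adjusted p = 0.26) and Slc1a3 (0.15, SE 0.06, adjusted p = 0.30), and DESeq2 called 0 (2.56% of all genes) and limma-voom with sample weights 2 (9.1% of all genes). The shares of the 9 genes that passed lay near those of all genes in both P522R comparisons, so the count by itself sets these genes apart from no others. The median log2 difference over the 9 genes was 0.02 for P522R against 5xFAD, where that of all genes tested was -0.04. It was 0.17 with per-library offsets for GC content and length, 0.11 with Bc1 share as covariate and 0.10 without the 5 libraries highest in Bc1, where that of all genes was -0.03, -0.02 and -0.02. In the fit without such allowances it was 0.02 against -0.03 for P522R against M28L, and 0.04 against 0.01 for M28L against 5xFAD. The P522R comparisons share the P522R libraries and those with 5xFAD share the 5xFAD libraries, so the comparisons are not independent of each other.

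**Figure D1:**
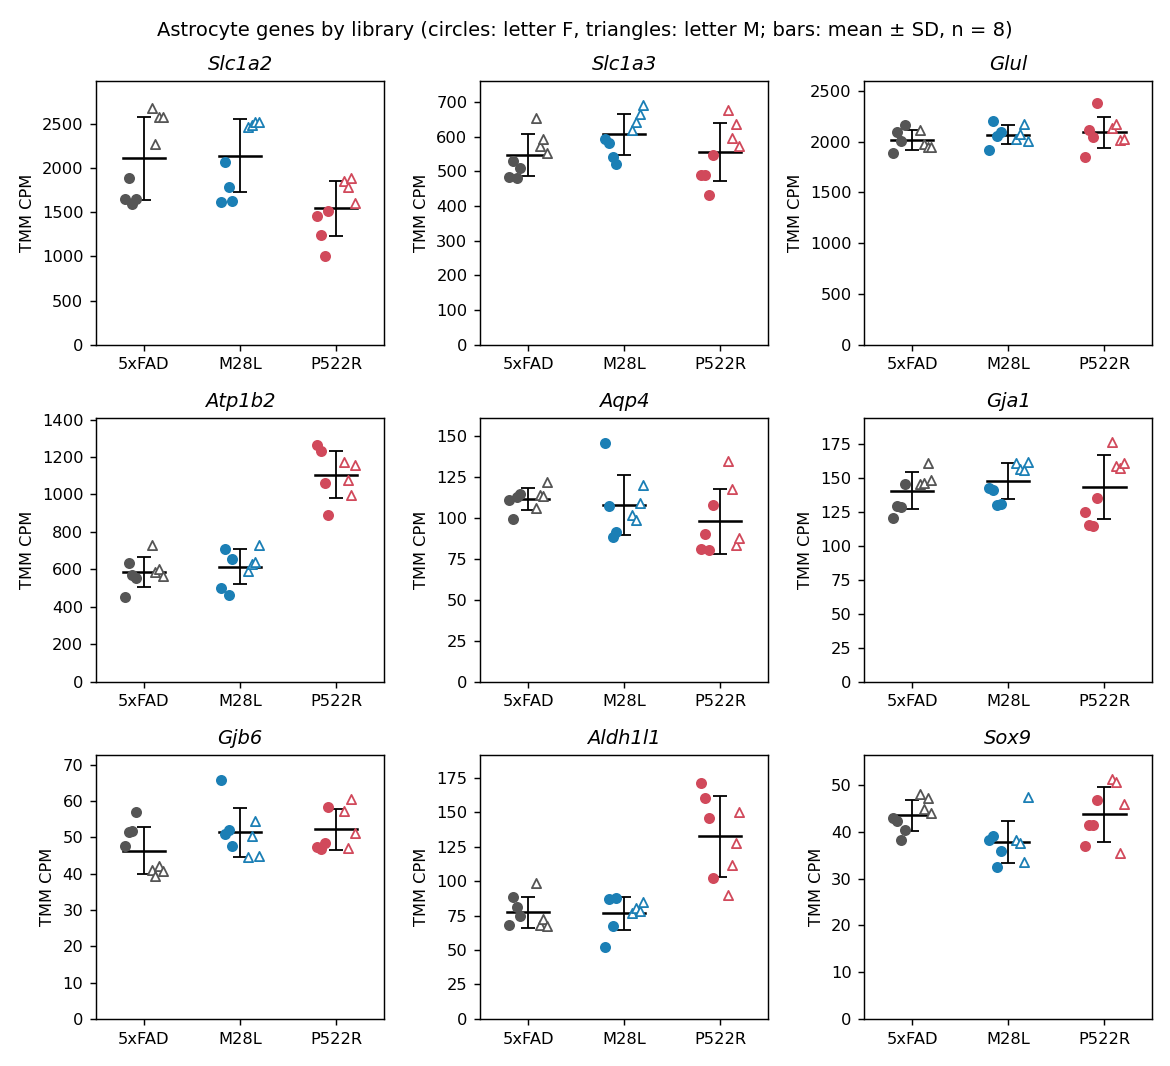
Level of the 9 astrocyte genes in TMM CPM (vertical axes, from 0) in each of 24 cortex libraries by genotype; filled circles are libraries with the title letter F, open triangles those with M, and bars show the mean ± SD of 8 libraries. Atp1b2 in P522R (891 to 1263) lies above every other library, and Slc1a2 splits by letter within each genotype.

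Levels are given as CPM, that is read counts scaled to a common library size by TMM factors, and between genes only as CPM per kilobase of exon. In 5xFAD cortex the enzyme Glul had the highest level per kilobase, 534 ± 25.8 (SD, n = 8), and its range met that of no other gene here. Slc1a2 at 161 ± 35.7 and Atp1b2 at 144 ± 19.2 followed, with overlapping ranges. Slc1a3 stood alone in the fourth place at 64.1 ± 6.97. Below it came Aqp4 at 17.9 ± 1.06, Gjb6 at 17.3 ± 2.43, Aldh1l1 at 17.2 ± 2.49 and Gja1 at 13.7 ± 1.31. Each of these except Gja1 overlapped the next in order. The transcription factor Sox9 was lowest at 10.53 ± 0.79, under the range of Gja1. Summed over the 9 genes, CPM ran between 4862 and 6629 in 5xFAD, between 5081 and 6441 in M28L and between 4973 and 6349 in P522R, so the sums overlapped fully while single genes went up and down.

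Slc1a2 encodes GLT-1, which takes up most of the glutamate released in the forebrain; the count matrix places it on chromosome 2 at 102489004 to 102621129, plus strand. Its level ranged between 1594 and 2684 CPM in the 5xFAD libraries (median 2079), between 1622 and 2530 in those of M28L (median 2272) and between 1004 and 1886 in those of P522R (median 1560.4). All 8 P522R libraries lay below the 5xFAD mean and 4 lay below every 5xFAD library. Within each title letter the ranges of P522R and 5xFAD did not overlap. The 4 F libraries reached 1004 to 1511 CPM in P522R against 1594 to 1885 in 5xFAD, and the 4 M libraries 1609.6 to 1886 against 2273 to 2684. The same held against M28L, where the F libraries ran from 1622 to 2075 and the M libraries from 2469.5 to 2530. Ranges that do not overlap in either letter, in the same direction, occurred for 5.78% of all genes in P522R against 5xFAD and 6.99% in P522R against M28L. The log2 difference of P522R from 5xFAD was -0.44 (SE 0.07, edgeR adjusted p = 8.10e-05) and from M28L -0.47 (SE 0.07, adjusted p = 2.88e-05). An exact two-sided permutation test of 8 against 8 libraries, which ignores the letter, gave p = 0.015 against 5xFAD (0.059 adjusted over 27 tests) and p = 0.0078 against M28L (0.042 adjusted). Among F libraries alone the call against 5xFAD was lost, at -0.30 (edgeR adjusted p = 0.13), while among M libraries alone it was -0.50 (adjusted p = 0.00014). Slc1a2 in M28L lay 0.03 (SE 0.07) above 5xFAD on the log2 scale and did not pass.

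Slc1a3 encodes GLAST, the companion glutamate transporter of astrocytes, listed on chromosome 15 at 8663608 to 8740248, minus strand. It ran between 480.3 and 655 CPM in 5xFAD, between 521 and 691 in M28L and between 432 and 678 in P522R, with medians of 542, 606 and 560.5, and all 3 ranges overlapped. Its log2 difference from 5xFAD was 0.02 (SE 0.06) in P522R and 0.15 (SE 0.06, edgeR adjusted p = 0.30) in M28L, and neither passed. The ratio of Slc1a2 to Slc1a3 per kilobase was 2.49 ± 0.34 in 5xFAD, 2.28 ± 0.28 in M28L and 1.80 ± 0.15 in P522R (SD, n = 8 each). All 8 P522R libraries, at 1.51 to 1.95, lay under the lowest 5xFAD library, at 2.11. M28L ran from 1.78 to 2.60, so it too reached under that library and into the P522R range. How often ratios of other genes separate in this way was not examined. This ratio was formed after the fall of Slc1a2 was known and was not tested.

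Glul encodes glutamine synthetase, which turns the captured glutamate into glutamine, and is listed on chromosome 1 at 153775690 to 153785469, plus strand. Its SD was the smallest of the 9 genes in relation to the mean in each genotype. It ran between 1891 and 2163 CPM in 5xFAD, between 1921 and 2205 in M28L and between 1846 and 2379 in P522R. The log2 difference from 5xFAD was 0.04 (SE 0.06) in M28L and 0.05 (SE 0.06) in P522R, and neither passed. The glutamate transporter and the glutamine-making enzyme thus differed in P522R: one fell and the other did not pass the test, a contrast that was not itself tested.

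Atp1b2 encodes the beta-2 subunit of the sodium-potassium pump, also called AMOG, which in brain is found mainly on astrocytes; it is listed on chromosome 11 at 69490562 to 69496768, minus strand. It ran between 451 and 729 CPM with a median of 578 in 5xFAD, between 463 and 731 with a median of 636 in M28L, and between 891 and 1263 with a median of 1117 in P522R. The lowest P522R library stood above the highest library of both other groups, a separation found for 2.89% of all genes against 5xFAD and for 2.61% against M28L. The log2 difference of P522R was 0.92 from 5xFAD (SE 0.09, edgeR adjusted p = 1.91e-07) and 0.85 from M28L (SE 0.09, adjusted p = 3.59e-07). The exact permutation test gave p = 0.00016, the smallest it can give, in both comparisons (0.0014 adjusted over 27 tests). M28L lay 0.07 (SE 0.09) above 5xFAD and did not pass.

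Aqp4 encodes the water channel of astrocyte endfeet and is listed on chromosome 18 at 15522553 to 15544039, minus strand. It ran between 99.3 and 122 CPM in 5xFAD, between 88.3 and 145 in M28L and between 80.6 and 134 in P522R. Its spread was wider in both variant groups, with an SD of 6.58 in 5xFAD against 18.3 in M28L and 19.9 in P522R. The M28L value rested on replicate 28, at 145 CPM, without which it was 10.9, and without P522R replicate 21 that of P522R was 14.5; the spreads were not tested. In P522R 5 of 8 libraries lay below every 5xFAD library and 1 above. The log2 difference was -0.19 (SE 0.10, edgeR adjusted p = 0.16) in P522R and -0.05 (SE 0.10) in M28L, and neither passed. Without P522R replicate 21 the difference from 5xFAD was -0.25 and did pass (adjusted p = 0.039).

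Gja1 and Gjb6 encode connexin 43 and connexin 30, the channel proteins of astrocyte gap junctions. Gja1, listed on chromosome 10 at 56253426 to 56278609 on the plus strand, ran between 121 and 162 CPM in 5xFAD, between 130.1 and 162 in M28L and between 115 and 177 in P522R. Its log2 difference from 5xFAD was 0.07 (SE 0.06) in M28L and 0.01 (SE 0.06) in P522R, and neither passed. Gjb6 is listed on chromosome 14 at 57360760 to 57371068, minus strand. It ran between 39.4 and 57.0 CPM in 5xFAD, between 44.6 and 65.9 in M28L and between 46.9 and 60.7 in P522R, and all 8 P522R libraries lay above the 5xFAD mean of 46.4. The 4 M libraries of 5xFAD, at 39.4 to 42.1 CPM, were lower than every other library of the series for this gene, while the 4 F libraries of 5xFAD, at 47.6 to 57.0, lay within the range of the variants. Gjb6 in P522R stood 0.18 (SE 0.08, edgeR adjusted p = 0.11) above 5xFAD and in M28L 0.15 (SE 0.08, adjusted p = 0.52), and neither passed. It did pass in P522R when replicate 8 (adjusted p = 0.034) or replicate 24 (adjusted p = 0.039) of P522R was left out, and among M libraries alone (0.41, adjusted p = 0.0038).

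Aldh1l1 encodes a cytosolic formyltetrahydrofolate dehydrogenase and is the most widely used marker of astrocytes across brain regions; it is listed on chromosome 6 at 90463409 to 90577185, plus strand. It ran between 67.1 and 98.5 CPM with a median of 73.7 in 5xFAD, between 52.1 and 88.1 with a median of 79.4 in M28L, and between 90.2 and 171 with a median of 137 in P522R. All 8 P522R libraries stood above every M28L library, where the ranges of 2.61% of all genes did not overlap. Against 5xFAD 7 of 8 stood above every library, and the exception was replicate 21, at 90.2 CPM. The log2 difference of P522R was 0.77 from 5xFAD (SE 0.12, edgeR adjusted p = 3.77e-05) and 0.78 from M28L (SE 0.12, adjusted p = 2.24e-05). The exact permutation test gave p = 0.00031 against 5xFAD (0.0021 adjusted over 27 tests) and p = 0.00016, the smallest it can give, against M28L (0.0014 adjusted). M28L lay 0.01 (SE 0.12) below 5xFAD and did not pass. Other genes overlap 13.4% of the exon bases of Aldh1l1, 499 of them on the opposite strand, and no source used here says whether reads were counted by strand, so some reads may belong to those genes.

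RefSeq promoter windows, from 250 bases before to 50 bases after the start on GRCm38.p6, were found for 6 of the 9 genes. That of Slc1a2 lies 47779 bases from the nearest principal start of the gene in GENCODE M21, at an alternative start, and the others lie within 43 bases of one. These coordinates are on GRCm38.p6, while no source used here names the build of the gene coordinates in the count matrix, so these sets cannot be compared. The window of Aldh1l1 (chr6:90550543-90550842, plus strand) is shown since it is the gene that rose with a window at its main start, and that of Glul (chr1:153899679-153899978, plus strand) as a gene that did not pass. Capitals mark a CCAAT box (CCAAT, or ATTGG on the other strand) or a GC box (GGGCGG, or CCGCCC on the other strand).
Aldh1l1: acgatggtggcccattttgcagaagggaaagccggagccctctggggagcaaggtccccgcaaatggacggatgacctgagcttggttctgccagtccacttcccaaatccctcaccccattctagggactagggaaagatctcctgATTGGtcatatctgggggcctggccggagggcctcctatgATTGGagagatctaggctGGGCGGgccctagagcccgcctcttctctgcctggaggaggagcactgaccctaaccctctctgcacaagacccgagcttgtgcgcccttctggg
Glul: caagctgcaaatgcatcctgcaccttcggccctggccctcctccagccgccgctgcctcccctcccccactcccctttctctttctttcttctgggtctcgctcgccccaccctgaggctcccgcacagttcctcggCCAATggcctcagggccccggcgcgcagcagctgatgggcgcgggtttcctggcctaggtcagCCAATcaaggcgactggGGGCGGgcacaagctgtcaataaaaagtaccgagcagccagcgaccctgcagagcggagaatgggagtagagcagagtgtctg
The windows of both genes held 2 CCAAT boxes and 1 GC box, in Aldh1l1 with the CCAAT boxes on the minus strand and in Glul on the plus strand. A share of 37.4% of all 32851 RefSeq windows held a CCAAT box and 35.7% a GC box. The sequence ACAAT, the core bound by SOX factors such as Sox9, was in neither of the printed windows, in 1 of the 6 windows (that of Slc1a3) and in 31.0% of all. The motif TTGGCA of the NFI factors was in none of the 6 and in 14.1% of all. The motifs were searched on both strands and do not overlap each other in these windows. A match describes letters only, and these data hold no measure of binding.

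Sox9 encodes the transcription factor that is largely restricted to astrocytes in the adult brain, listed on chromosome 11 at 112673050 to 112678586, plus strand. It ran between 38.3 and 48.1 CPM in 5xFAD, between 32.5 and 47.4 in M28L and between 35.4 and 51.2 in P522R. In M28L 7 of 8 libraries lay below the 5xFAD mean of 43.5 and 6 below every 5xFAD library, yet the difference of -0.20 (SE 0.08) did not pass over all genes (edgeR adjusted p = 0.26; exact permutation p = 0.012, 0.052 adjusted over 27 tests). The P522R level was 0.01 (SE 0.08) above 5xFAD. Sox9 was 0.21 (SE 0.08, edgeR adjusted p = 0.036) higher in P522R than in M28L, in 6 of 8 libraries by the M28L mean. That call was lost when any 1 of 9 libraries was left out (replicates 106, 54, 23 and 31 of P522R, or 14, 16, 11, 15 and 9 of M28L), with an adjusted p of up to 0.086, and the exact permutation test did not pass either (0.14 adjusted).

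**Figure D2:**
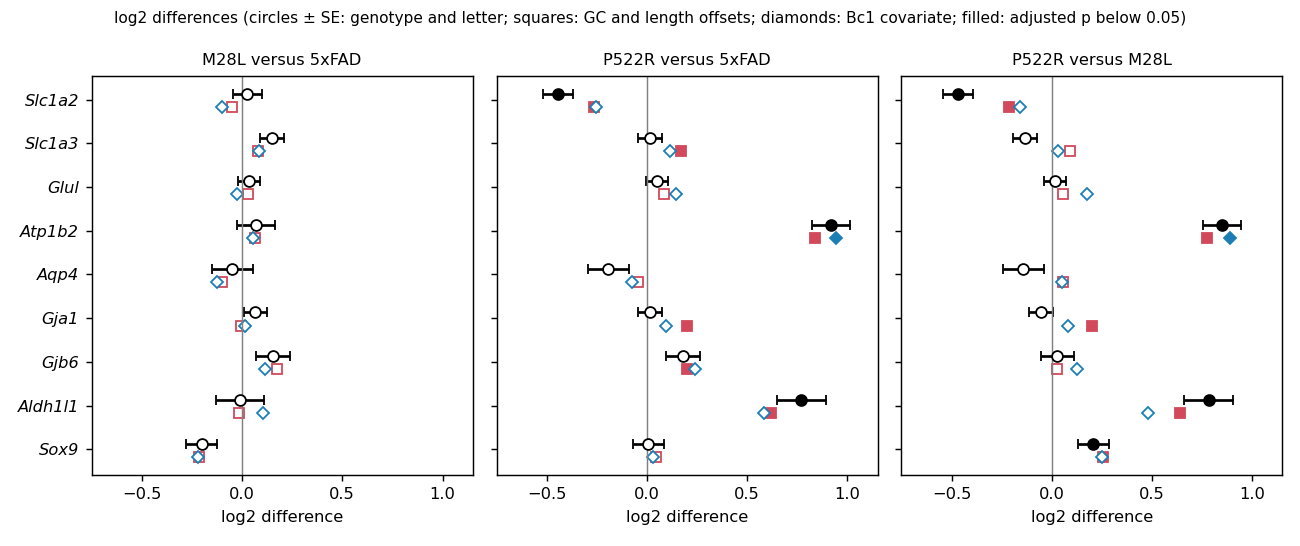
Log2 difference of each of the 9 genes (horizontal axis) in the 3 genotype comparisons; circles with bars are the estimate ± SE with genotype and title letter in the fit, squares add per-library offsets for GC content and length, diamonds add the Bc1 share as a covariate, and filled symbols passed an adjusted p of 0.05. Atp1b2 is filled in all 3 fits of both P522R comparisons, at 0.77 to 0.94.

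Atp1b2, Aldh1l1 and Slc1a2 passed in all 16 fits that left out 1 library of the groups compared, in both P522R comparisons. The differences of P522R from 5xFAD then ran from 0.87 to 0.96 for Atp1b2, from 0.73 to 0.85 for Aldh1l1 and from -0.48 to -0.37 for Slc1a2. Whole-library measures moved with genotype, however, and moved with some of these genes. Among genes of at least 1 CPM the median log2 difference of P522R from 5xFAD went from -0.15 in the lowest quartile of GC content to 0.22 in the highest, and from 0.08 in the shortest to -0.13 in the longest quartile of exon length. Aldh1l1, with 54.4% GC in its transcript, lay at percentile 74.8 of GC content, Atp1b2, with 52.4%, at percentile 64.2, and Slc1a2, with 13133 exon bases, at percentile 95.7 of length.

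After removal of the genotype and letter means, the level of Aldh1l1 over 24 libraries followed the difference between GC-rich and GC-poor genes with Pearson r = 0.937 and Spearman rho = 0.895 (permutation p = 1e-05 for both, the smallest 100000 resamples can give; 0.00027 adjusted over 27 relations), and r = 0.891 without the 2 libraries farthest from the median. For Atp1b2 the values were r = 0.649 and rho = 0.661 (adjusted permutation p = 0.0034 and 0.0058), and r = 0.766 without those 2 libraries. Slc1a2 followed the difference between long and short genes with r = 0.733 and rho = 0.642 (adjusted permutation p = 0.0009 and 0.0066), and r = 0.555 without the 2 farthest. These are measures of the same libraries, so each gene is set against a summary of many others from the same counts. With per-library offsets for GC content and length the differences of P522R from 5xFAD were 0.84 for Atp1b2 (edgeR adjusted p = 1.16e-09), 0.62 for Aldh1l1 (2.00e-07) and -0.27 for Slc1a2 (0.00082), and all 3 passed. In that fit Slc1a3 (0.17), Gja1 (0.20) and Gjb6 (0.20) also rose, making 6 of 9 against 32.3% of all genes. Between P522R and M28L the offsets gave 5 of 9, Gja1 (0.20) beside the 4 genes called before, against 34.4% of all genes.

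With the Bc1 share as a covariate only Atp1b2 passed in P522R against 5xFAD (0.94, edgeR adjusted p = 0.00031). Aldh1l1 stood at 0.58 (adjusted p = 0.054) and Slc1a2 at -0.26 (adjusted p = 0.0999), and 4.18% of all genes passed in that fit. Atp1b2 was also the 1 gene of the 9 that passed there against M28L (0.89), where 0.094% of all genes did. Without the 5 libraries in which Bc1 took over 10% of the counts (P522R replicates 8, 106, 24 and 31 and 5xFAD replicate 1180), which were chosen after the data were seen, Atp1b2 stood at 0.74 (adjusted p = 0.00023), Aldh1l1 at 0.44 (0.028) and Slc1a2 at -0.38 (0.0040). All 3 passed there, with Gjb6 (0.32, adjusted p = 0.027), against 11.5% of all genes, and against M28L 3 of 9 passed, against 13.3%. The value of Aldh1l1 was thus smaller by 0.33 without those libraries. The title prefix, a letter and number before the animal number, was also used as a block. The same 3 genes then passed in P522R against 5xFAD (4.4% of all genes) and 2, Atp1b2 and Aldh1l1, against M28L (5.92%). Libraries whose prefix occurs in no other genotype carry no information on genotype in that fit, so it rests on fewer than the 24 libraries.

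**Figure D3:**
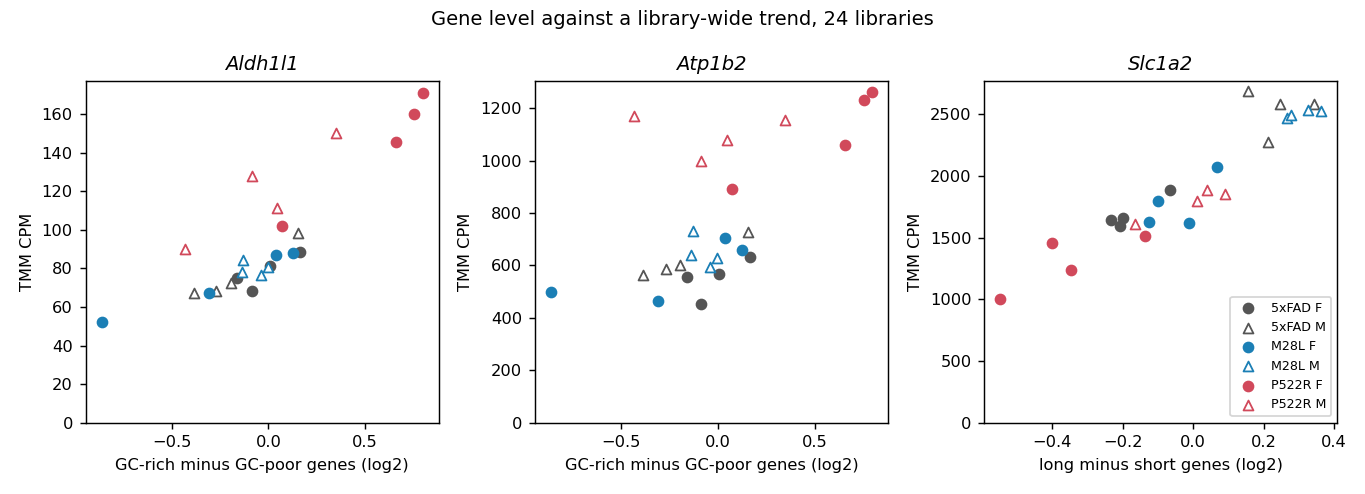
Level of Aldh1l1 and Atp1b2 in TMM CPM (vertical axes) against the log2 level of GC-rich minus GC-poor genes (horizontal axes), and of Slc1a2 against long minus short genes, in 24 libraries; colours are genotypes, circles the title letter F and triangles M. P522R replicate 21, the P522R library with the lowest value on the GC axis (-0.43), lies at 1171 CPM for Atp1b2, above every 5xFAD library, and at 90.2 CPM for Aldh1l1, within the 5xFAD range.

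P522R replicate 21 had the lowest GC measure of the P522R group, -0.43, below every 5xFAD library, with 1171 CPM of Atp1b2 and 90.2 CPM of Aldh1l1, the lowest Aldh1l1 level of the group. At the other end P522R replicates 8, 106 and 24, with GC measures of 0.80, 0.75 and 0.66, had 171, 160.2 and 146 CPM of Aldh1l1 and 1263, 1232 and 1059 CPM of Atp1b2. Both genes followed the GC measure over the 24 libraries, and whether the relation differed between them was not tested.

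Title letter went with several of these genes. Over all genotypes, M libraries exceeded F libraries in Slc1a2 by 0.51 (SE 0.06, edgeR adjusted p = 1.08e-06), in Gja1 by 0.28 (SE 0.05, adjusted p = 6.64e-05) and in Slc1a3 by 0.27 (SE 0.05, adjusted p = 0.00011). These 3 of 9 passed, against 33.8% of all genes. The mean of Slc1a2 was 1696 CPM in F and 2530.2 in M libraries of 5xFAD, 1780 and 2505 in M28L, and 1304 and 1786 in P522R. The difference between long and short genes was also lower in F than in M libraries, -0.23 to -0.07 against 0.16 to 0.34 in 5xFAD. With offsets for GC content and length the letter difference of Slc1a2 was 0.28 (adjusted p = 5.01e-05) and that of Slc1a3 0.10 (0.041), Gja1 at 0.05 (0.43) did not pass, and Atp1b2 at 0.15 (0.045) did. What part length and GC content had in the letter differences beyond these values was not tested.

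Whether a genotype difference depended on the letter was asked with an interaction term. In edgeR 0 of 9 genes passed in any of the 3 comparisons, where 0.0282% of all genes passed for M28L against 5xFAD, 0.0% for P522R against 5xFAD and 5.47% for P522R against M28L. At an unadjusted p under 0.05 there was 1, Gjb6 in P522R against 5xFAD, whose M minus F difference was 0.45 (SE 0.15) larger in P522R (edgeR adjusted p = 0.21); no other tool was run for this term.

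Once genotype and letter means were removed, the 9 genes did not vary as a single block. Of 36 pairs 10 had a Pearson correlation at an adjusted permutation p under 0.05, 8 with a positive and 2 with a negative sign, 8 of the 10 passed by Spearman's rho as well, and the median r over all pairs was 0.194. The connexin pair Gja1 and Gjb6 had r = 0.653 and rho = 0.619 (adjusted permutation p = 0.0064 and 0.028), and r = 0.536 without the 2 libraries farthest from the median. Both glutamate transporters went together, with r = 0.610 and rho = 0.566 (adjusted permutation p = 0.013 and 0.038), but r = 0.389 without the 2 farthest libraries. Aqp4 and Sox9 had r = 0.601 and rho = 0.594 (0.013 and 0.034), and r = 0.599 without the 2 farthest.

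Slc1a3 also went with Gja1 (r = 0.599, rho = 0.517, adjusted permutation p = 0.013 and 0.049, r = 0.393 without the 2 farthest) and Gjb6 (r = 0.569, rho = 0.557, 0.017 and 0.038, r = 0.485). The pairs that passed by Pearson's r alone were Slc1a3 with Aqp4 (r = 0.5, rho = 0.397, adjusted permutation p = 0.044 and 0.17, r = 0.331) and Aqp4 with Gja1 (r = 0.567, rho = 0.496, 0.017 and 0.059, r = 0.383). Aldh1l1 stood apart from these genes. It went with Atp1b2 (r = 0.740, rho = 0.801, adjusted permutation p = 0.0014 and 0.00072, r = 0.852 without the 2 farthest) and against Aqp4 (r = -0.737, rho = -0.535, 0.0014 and 0.047, r = -0.511) and Gjb6 (r = -0.512, rho = -0.516, 0.042 and 0.049, r = -0.282). The GC measure moved with all 4 of these genes, with r = -0.726 for Aqp4 and -0.669 for Gjb6, and its part in the pair correlations was not tested.

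**Figure D4:**
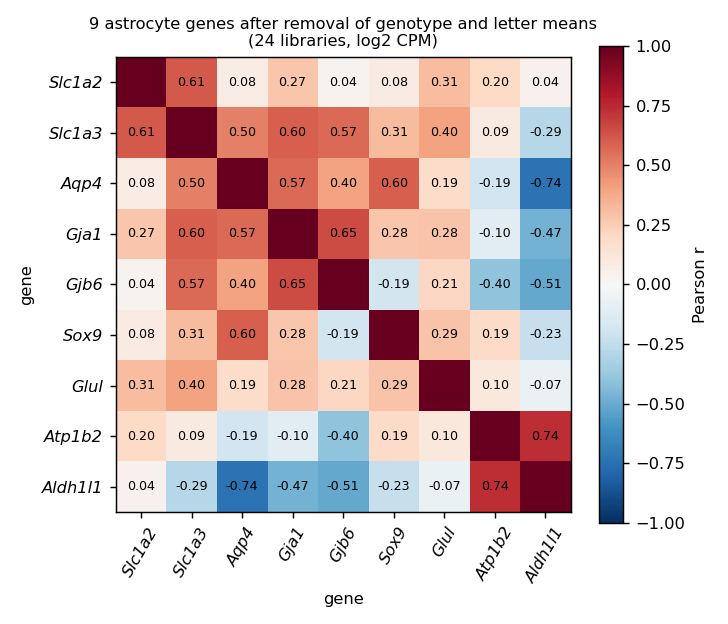
Pearson r between the 9 genes (both axes) over 24 libraries, from log2 CPM after removal of genotype and letter means; red is positive and blue negative. Aldh1l1 is positive with Atp1b2 (0.74) and negative with Aqp4 (-0.74).

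The genes most like each astrocyte gene over the 24 libraries were sought among 9770 protein-coding genes of at least 10 CPM. The same means were removed first. Most genes found were outside the astrocyte lists, but those lists hold only a small part of the genes searched. Whether listed genes were found more or less often than that part alone would give was not tested. Aldh1l1 was most like Tkt (r = 0.979) and Hk1 (0.975), enzymes of sugar metabolism. Atp1b2 was most like the synaptic vesicle gene Syn1 (0.923) and Clip3 (0.921), and Slc1a2 like the kinesin Kif1b (0.929) and Tmem178b (0.906). Aqp4 was most like Baz2b (0.939) and Cd2ap (0.879), and Gja1 like Ankrd34c (0.853) and the potassium channel gene Kcnj16 (0.820). Slc1a3 was most like Akap6 (0.820) and Cpd (0.802), Gjb6 like the fatty acid elongase Elovl5 (0.866) and Zfp207 (0.836), Glul like Ptpre (0.837) and Ddah1 (0.814), and Sox9 like Cd180 (0.843) and Rasgrp3 (0.693). These correlations are descriptions over libraries that share the measures above.

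Other genes of the same pathways were taken from lists chosen with earlier results of these data known. Of 15 other genes of glutamate, glutamine and GABA handling, 6 rose and 3 fell in P522R against 5xFAD, where 15.0% of all genes were higher and 14.8% lower, and 0 changed in M28L, where 0.503% of all genes were higher and 0.71% lower. The glutamine exporter Slc38a3 rose by 0.72 (SE 0.14), from 64.0 ± 11.1 to 105 ± 24.3 CPM, the neutral amino acid transporter Slc7a10 by 0.60 (SE 0.12) and the mitochondrial aspartate aminotransferase Got2 by 0.48 (SE 0.09). Without the 5 libraries high in Bc1 the counts were 0 higher and 2 lower, and with Bc1 share as covariate 0 of the 15 passed, with a list median of 0.15 in place of 0.07. For P522R against 5xFAD, here and in the lists below, 11.5% and 4.18% of all genes passed in these fits.

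Of 18 other genes of ion and water transport and the endfoot, 5 rose and 2 fell in P522R against 5xFAD, and 0 changed in M28L. For this list and the next, 15.0% of all genes were higher and 14.8% lower in P522R. In M28L 0.503% were higher and 0.71% lower. Kcnj16, a subunit of inward-rectifier potassium channels, fell by 0.32 (SE 0.09) and the dystrobrevin gene Dtna, whose product belongs to the complex that anchors the Aqp4 channel at the endfoot, by 0.25 (SE 0.07). Without the libraries high in Bc1 1 gene of the list was higher and 1 lower, and with Bc1 share as covariate 0 of the 18 passed, with a list median of 0.08 in place of 0.05. Of 10 other genes of gap junctions and their scaffolds 3 rose and 1 fell: the vascular connexins Gja4 (0.42, SE 0.15) and Gja5 (0.93, SE 0.33), the oligodendrocyte connexin Gjb1 (0.30, SE 0.10) and, downward, the neuronal connexin Gjd2 (-0.25, SE 0.09). None of the 4 is a connexin typical of astrocytes, and 0 of the 10 passed without the libraries high in Bc1 or with Bc1 share as covariate, where the list median was 0.10 and 0.09 in place of 0.14.

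Of 16 transcription and signalling genes of the astrocyte lineage, 6 rose and 5 fell in P522R against 5xFAD, with Lhx2 (-0.35, SE 0.07), Nfib (-0.37, SE 0.09) and Rorb (-0.41, SE 0.10) lower and Id4 (0.33, SE 0.08) higher, and 0 changed in M28L. The shares of all genes, for this list and the next, were 15.0% higher and 14.8% lower in P522R. In M28L they were 0.503% and 0.71%. Without the libraries high in Bc1 2 were higher and 1 lower, and with Bc1 share as covariate 0 of the 16 passed. Of 26 further astrocyte-enriched genes 13 rose and 3 fell, with a median log2 difference of 0.25 where that of all genes was -0.04. The secreted protease Htra1 rose by 0.81 (SE 0.10), from 163 ± 26.7 to 287 ± 39.1 CPM, the phospholipase Plcd4 by 0.56 (SE 0.07) and Ndrg2 by 0.37 (SE 0.06), while the engulfment receptor Megf10 fell by 0.41 (SE 0.07). Without the libraries high in Bc1 5 of the 26 were higher and 1 lower, with Bc1 share as covariate 3 and 1, and with GC and length offsets 15 and 2. With the offsets 32.3% of all genes passed in either direction.

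Some genes of reactive astrocytes passed in M28L as well. Of 22 such genes 3 fell in M28L against 5xFAD and 9 rose and 1 fell in P522R. Of all genes 0.71% were lower in M28L, and 15.0% were higher and 14.8% lower in P522R. Gfap, at 1277 ± 646 CPM in 5xFAD, 823 ± 368 in M28L and 1880.1 ± 947 in P522R (SD, n = 8), fell by 0.60 (SE 0.15, edgeR adjusted p = 0.036) in M28L and rose by 0.60 (SE 0.15, adjusted p = 0.0028) in P522R. The other genes that fell in M28L were the protease inhibitor gene Serpina3n (-0.76, SE 0.16) and Aspg (-0.72, SE 0.17). With the Bc1 share as a covariate 0 of the 22 passed in M28L, where 0.338% of all genes did, and 1 in P522R. The list median then was -0.19 in M28L, against -0.20 without the covariate, and 0.32 in P522R, against 0.43.

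Markers of other cells moved in both variants, and their part in the results for the astrocyte genes was not tested. In M28L against 5xFAD, beside the fall of Gfap, 3 of 12 microglial genes fell, among them the chemokine receptor gene Cx3cr1 (-0.52, SE 0.09) and the adaptor gene Tyrobp (-0.67, SE 0.13), with a list median of -0.37. For this and the other lists of this paragraph, 0.71% of all genes were lower and 0.503% higher in M28L. Summed microglial CPM ran from 690 to 1355 in M28L, from 773 to 1676 in 5xFAD and from 777 to 1733 in P522R, and all 3 ranges overlapped. Without the libraries high in Bc1 5 of the 12 were lower in M28L, where 196 of 22206 genes were. With Bc1 share as covariate 1 was lower, where 0.338% of all genes passed in either direction. The endothelial tight-junction gene Cldn5 also fell in M28L (-0.67, SE 0.14), the 1 of 10 endothelial genes that passed, while 3 of 10 meningeal fibroblast genes rose, the collagen genes Col1a1 (1.48, SE 0.18), Col1a2 (0.78, SE 0.11) and Col3a1 (0.88, SE 0.22), and 1 of 10 choroid plexus and ependymal genes, Otx2 (2.02, SE 0.49). The sum over that last list in M28L had a median of 22.2 CPM but reached 281 CPM in replicate 17, whose part in the Otx2 call was not examined. Without the libraries high in Bc1 0 of the 10 passed in M28L, and with Bc1 share as covariate 1 did.

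In P522R against 5xFAD 8 of 10 meningeal genes and 6 of 10 mural cell genes rose and 0 of either fell. For these and the other lists of this paragraph, 15.0% of all genes were higher and 14.8% lower. Summed meningeal CPM ran between 83.7 and 110.4 in P522R, between 70.6 and 105 in M28L and between 45.9 and 68.9 in 5xFAD, and summed mural CPM from 218 to 359, 153 to 232 and 182 to 239.5. The meningeal count was 6 higher without the libraries high in Bc1 and 7 with Bc1 share as covariate. The mural count was 1 higher and 1 lower without those libraries and 1 higher with the covariate, with list medians of 0.22 and 0.41 in place of 0.46. Of 9 genes of oligodendrocyte precursors 4 rose in P522R, Sox10 (0.98, SE 0.15), Bcan (0.82, SE 0.18), Cspg4 (0.69, SE 0.16) and Olig1 (0.22, SE 0.09), of 10 choroid plexus and ependymal genes 3, and of 10 endothelial genes 2. Without the libraries high in Bc1 these counts were 1, 0 and 1, with 2 endothelial genes lower. Cspg4 is on the mural list as well as on that of oligodendrocyte precursors and is counted in both. Of 12 neuronal genes 1 rose and 4 fell, of 12 oligodendrocyte genes 1 and 2, and of 12 microglial genes 1 and 2. Summed neuronal CPM ran from 9804 to 12066 in P522R and from 8993 to 12559.9 in 5xFAD. Of the 7 genes listed to check the dissection for cerebellar tissue, Gabra6, Pcp2 and Barhl1 stayed below 0.1 CPM in every library. Of the 4 that were tested 3 rose in P522R against 5xFAD, Itih3 (0.59, SE 0.12), Gdf10 (0.34, SE 0.10) and Cbln1 (0.26, SE 0.09), and the sum over the list was 77.2 ± 17.6 CPM in P522R, 53.7 ± 4.54 in M28L and 54.3 ± 9.14 in 5xFAD. None of the 4 passed without the libraries high in Bc1 (list median 0.16 in place of 0.30) or with Bc1 share as covariate (0.25). Whether their rise had to do with the dissection was not tested.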

How the data were processed

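Per the labels, polyadenylated RNA libraries were made with a KAPA mRNA HyperPrep kit. The authors deposited raw read counts per gene, and the submitters' processing notes name STAR 2.7.2b and featureCounts; build, annotation and strandedness of the counting are not given in the sources used here. Gene coordinates are those of the deposited matrix; symbols, GC content and overlaps came from GENCODE M21, to which 97.1% of the gene identifiers matched, but in which only 2.76% of genes have the deposited start and end, so the build of the deposited coordinates is not known. The members and all gene lists were chosen with earlier results of these data known.

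From the counts, edgeR 4.0.16 (R 4.3.3) gave TMM factors, CPM and quasi-likelihood tests with genotype and title letter over 24 libraries in one fit, for 21280 genes that passed filterByExpr, with Benjamini-Hochberg adjustment over all of them. DESeq2 1.42.0 and limma 3.58.1 served as alternatives, and the fit was tested on simulated data. Permutation tests and correlations, in Python 3.11.15 with scipy 1.17.1, used log2(CPM + 0.5). Named genes were all 9 members, at most 4 of each list per comparison by smallest p, Gfap, and the 2 genes most like each member. Some listed genes are not reported here by name. Replicates are libraries with separate animal numbers.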

Additional observations from a re-analysis of the deposited data

Results flagged for a closer look

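In M28L replicate 28 Gjb6 stood at 65.9 CPM, above the other 7 M28L libraries, the next of which stood at 54.6. It was flagged by Dixon's criterion, whose limit was 0.526. The same library had the lowest measure of GC-rich minus GC-poor genes of the series, -0.86, the lowest Aldh1l1, 52.1 CPM, and the highest Aqp4, 145 CPM. Without it Gjb6 in M28L lay 0.10 above 5xFAD in place of 0.15, and neither value passed.

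In M28L replicate 17 Sox9 stood at 47.4 CPM and was flagged by the same criterion. The next M28L library stood at 39.2, and those of 5xFAD ran from 38.3 to 48.1. This library also held 281 CPM of the 10 choroid plexus and ependymal genes, against a median of 22.2 in M28L. Without it the difference of Sox9 from 5xFAD was -0.25 (edgeR adjusted p = 0.14). Chance flags about 1 in 20 groups by this criterion, and 27 groups were examined.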

How the results depend on the processing

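Of the values under other settings, 335 kept their direction and side of the threshold, 24 changed side only and 28 changed sign; with 1 library left out these numbers were 404, 13 and 15. Members called stayed at 0 in M28L against 5xFAD except with limma-voom (2, where 9.1% of all genes passed). In P522R against 5xFAD they were 6 with GC and length offsets, where 32.3% of all genes passed. With Bc1 as covariate they were 1, where 4.18% did. In P522R against M28L they were 2 with the title prefix as a replicate block, where 5.92% of all genes passed. With the Bc1 share they were 1, where 0.094% did. In the block fit Slc1a2 had an edgeR adjusted p of 0.054 and Sox9 0.10. The prefix is a letter and number before the animal number. Some prefixes occur in several genotypes, and no label says whether they pair animals. Leaving out 1 library gave 0 in M28L against 5xFAD and 3 to 4 in both others. Over all genes 157 to 305 then passed in M28L against 5xFAD, of 21436 to 21512 tested. In P522R 5383 to 7489 passed against 5xFAD and 6443 to 8402 against M28L. Without removal of group means 6 pairs of genes were correlated.

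Sign changes fell on small differences that passed in neither fit, except Gja1 in P522R against M28L, which rose by 0.20 with GC and length offsets. In M28L against 5xFAD Aldh1l1 was 0.134 (limma-voom), 0.103 (Bc1 share) and 0.046 (M libraries alone). Slc1a2 was -0.0063 (upper-quartile factors), -0.050 (offsets), -0.098 (Bc1 share) and -0.032 (M alone). Atp1b2 was -0.081 and Aqp4 0.0093 (block), Gja1 -0.0038 (offsets) and Glul -0.026 (Bc1 share). In P522R against 5xFAD Gja1 was -0.0076 (limma-voom) and -0.0142 (F alone), and Sox9 -0.0061 (M alone). In P522R against M28L the Bc1 share gave Slc1a3 0.030, Aqp4 0.052 and Gja1 0.083, and offsets gave Slc1a3 0.089 and Aqp4 0.056. Leaving out libraries high in Bc1 gave Aqp4 0.0395 and Gja1 0.043. Gja1 was 0.060 with M alone, Gjb6 -0.073 (block) and -0.0396 (F alone), and Glul -0.0029 (limma-voom). For M against F, offsets gave Aqp4 -0.0645 and Glul 0.009. With 1 library left out, Aldh1l1 ran from -0.039 to 0.061 and Slc1a2 from -0.0103 to 0.046 in M28L. Slc1a3 ran from -0.0039 to 0.073 and Sox9 from -0.021 to 0.057 in P522R against 5xFAD, and Gjb6 from -0.0184 to 0.082 and Glul from -0.015 to 0.067 in P522R against M28L. The causes were not tested.

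Slc1a3 in P522R against M28L passed only without P522R replicate 54 (adjusted p = 0.044). The shallowest library held 79230161 counts, and the lowest level of any of the 9 genes in a library was 32.5 CPM, so every value rests on well above the floor of detection.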
